A study of Mus musculus with 6 samples.

Results

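Interferon genes were examined in granulosa cell tumors of mutant mice and in wild-type granulosa cells. The list held 40 genes, named by symbol: interferon receptors, the transcription factors that act below them, and genes that interferons induce. Each gene was read from the array probe sets annotated with its symbol alone, and where there were several, the one brightest on average over the 6 arrays stood for it. Of the 40 genes, 38 had such a probe set among 18193 named genes, and 32 were tested among 11600. Isg15 shared its probe set with another symbol and Ifi44 matched no probe set, so neither is reported.

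3 arrays carried RNA of granulosa cell tumors from Smad1/5/8 mutant mice. The other 3 carried RNA of granulosa cells, the somatic cells around the oocyte, isolated from wild-type C57BL/6J;129S5/SvEvBrd females of 21 days. These females had received PMSG, a gonadotropin preparation that drives follicle growth, 44 to 46 hours earlier, and each sample pooled 2 to 3 of them. No treatment is recorded for the tumors. The sources used here do not give the strain, sex or age of the tumor mice, the kind of Smad mutation, or any Cre or promoter behind it.

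Interferons are secreted proteins that cells release when they sense viral or other misplaced nucleic acid. Type I interferons act through a receptor built of Ifnar1 and Ifnar2, and Stat2 and Irf9 are part of the complex that then binds a DNA element called ISRE in the promoters of induced genes. Interferon gamma acts through Ifngr1 and Ifngr2, and its targets often carry another element, called GAS. Macrophages and other immune cells respond strongly to both, and many other cell types carry a low level of the same genes.

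The promoters of the listed genes were searched for these elements. Promoter sequence was not used to choose the genes, but many are listed because interferons induce them. The shares below are therefore not an independent check of the list. RefSeq promoters (assembly GRCm38.p6, 250 bases before to 50 after each start site) were found for 35 of the 40 genes, with 42 promoters in all. 3 patterns were searched on both strands: the ISRE core GAAANNGAAA, the shorter IRF core AANNGAAA, which lies within every ISRE core, and GAS as TTCNNNGAA. The ISRE core stood in 38.1% of the promoters of the listed genes and in 3.44% of all 32851 promoters. The IRF core stood in 47.6% against 23.9%, and GAS in 31% against 8.3%. A match is a description of the sequence and does not show that a factor bound there.

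**Figure D1:**
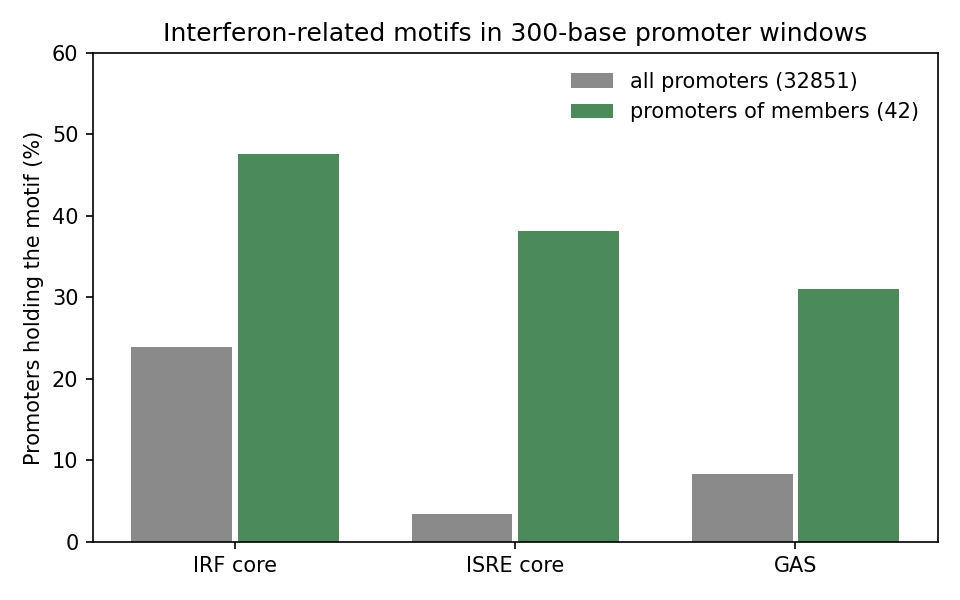
The percentage of 300-base promoter windows that hold each of 3 interferon-related patterns, in all 32851 promoters (grey) and in the 42 promoters of the listed genes (green). The ISRE core was the rarest pattern in all promoters (3.44%) and stood in 38.1% of those of the listed genes.

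The stretches below are shown because they come from genes that passed the test between tumors and wild-type cells and from genes that did not. All lie before the start site, 5′ to 3′ on the gene's strand. Capitals mark ISRE cores where a stretch has any, and otherwise the IRF core or GAS, while further matches of the other patterns stay in lower case. The first is from Ifit1 (chr19:34640769-34640829, plus strand) and the next from Ifit3 (chr19:34583357-34583432, plus strand), each with 2 ISRE cores read on the opposite strand. Bst2 (chr8:71537571-71537618, minus strand), Irgm1 (chr11:48871421-48871466, minus strand) and Igtp (chr11:58199506-58199547, plus strand) also have ISRE cores, as do Stat2 (chr10:128270260-128270301, plus strand) and Irf2 (chr8:46739495-46739529, plus strand). The stretches of Bst2 (TTCCAGGAA), Igtp (TTCTAGGAA) and Irf2 (TTCCGAGAA) hold a GAS match too, left unmarked. Xaf1 (chr11:72301596-72301628, plus strand) has an IRF core here, and Ifit2 (chr19:34550444-34550477, plus strand), Irf8 (chr8:120736171-120736229, plus strand) and Psmb8 (chr17:34198082-34198122, plus strand) have GAS.
Ifit1: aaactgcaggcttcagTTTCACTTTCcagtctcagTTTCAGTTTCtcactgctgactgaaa
Ifit3: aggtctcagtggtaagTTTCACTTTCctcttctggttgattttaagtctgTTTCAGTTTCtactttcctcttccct
Bst2: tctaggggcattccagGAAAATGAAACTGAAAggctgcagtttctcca
Irgm1: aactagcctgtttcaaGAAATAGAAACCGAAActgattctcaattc
Igtp: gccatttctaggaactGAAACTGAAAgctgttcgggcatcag
Stat2: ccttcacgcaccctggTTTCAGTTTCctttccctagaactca
Irf2: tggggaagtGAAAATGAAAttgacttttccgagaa
Xaf1: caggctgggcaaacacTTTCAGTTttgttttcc
Ifit2: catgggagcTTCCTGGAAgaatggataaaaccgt
Irf8: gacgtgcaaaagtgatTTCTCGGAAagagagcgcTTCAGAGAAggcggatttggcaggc
Psmb8: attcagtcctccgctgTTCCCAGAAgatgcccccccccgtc

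The groups were compared as log2(signal + 32) with limma, over all genes that reached a signal of 100 on 3 or more arrays, and called at an adjusted p under 0.05. Of the 32 tested genes, 6 were higher in tumors (Xaf1, Ifit2, Irf2, Irf8, Eif2ak2 and Psmb8), 1 was lower (Stat2) and 25 did not pass. Over all 11600 tested genes, 14.5% were called higher and 12.6% lower, and 7 of 32 (21.9%) stands beside 27.2% of all genes called in either direction. With median scaling, 1717 of all genes were higher and 918 lower, against 1686 and 1467. The count of listed genes called higher fell from 6 to 3 without wild-type replicate 1, wild-type replicate 2 or tumor replicate 2, and with no filter on dim genes. The 3 tumors lay wholly above or below the 3 wild-type samples in 11 of the 32 genes, against 46.3% of all tested genes. The median log2 fold change was 0.16 for the 32 genes and -0.0049 for all; without tumor replicate 2 the former was 0.085. At least a 2-fold difference was seen in 18.8% of the 32 and 15.2% of all. Of the 32 genes, 26 reached 100 on every array, and 4 (Xaf1, Ifit2, Irf8 and Oas1a) did so in every tumor but not in every wild-type sample.

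**Figure D2:**
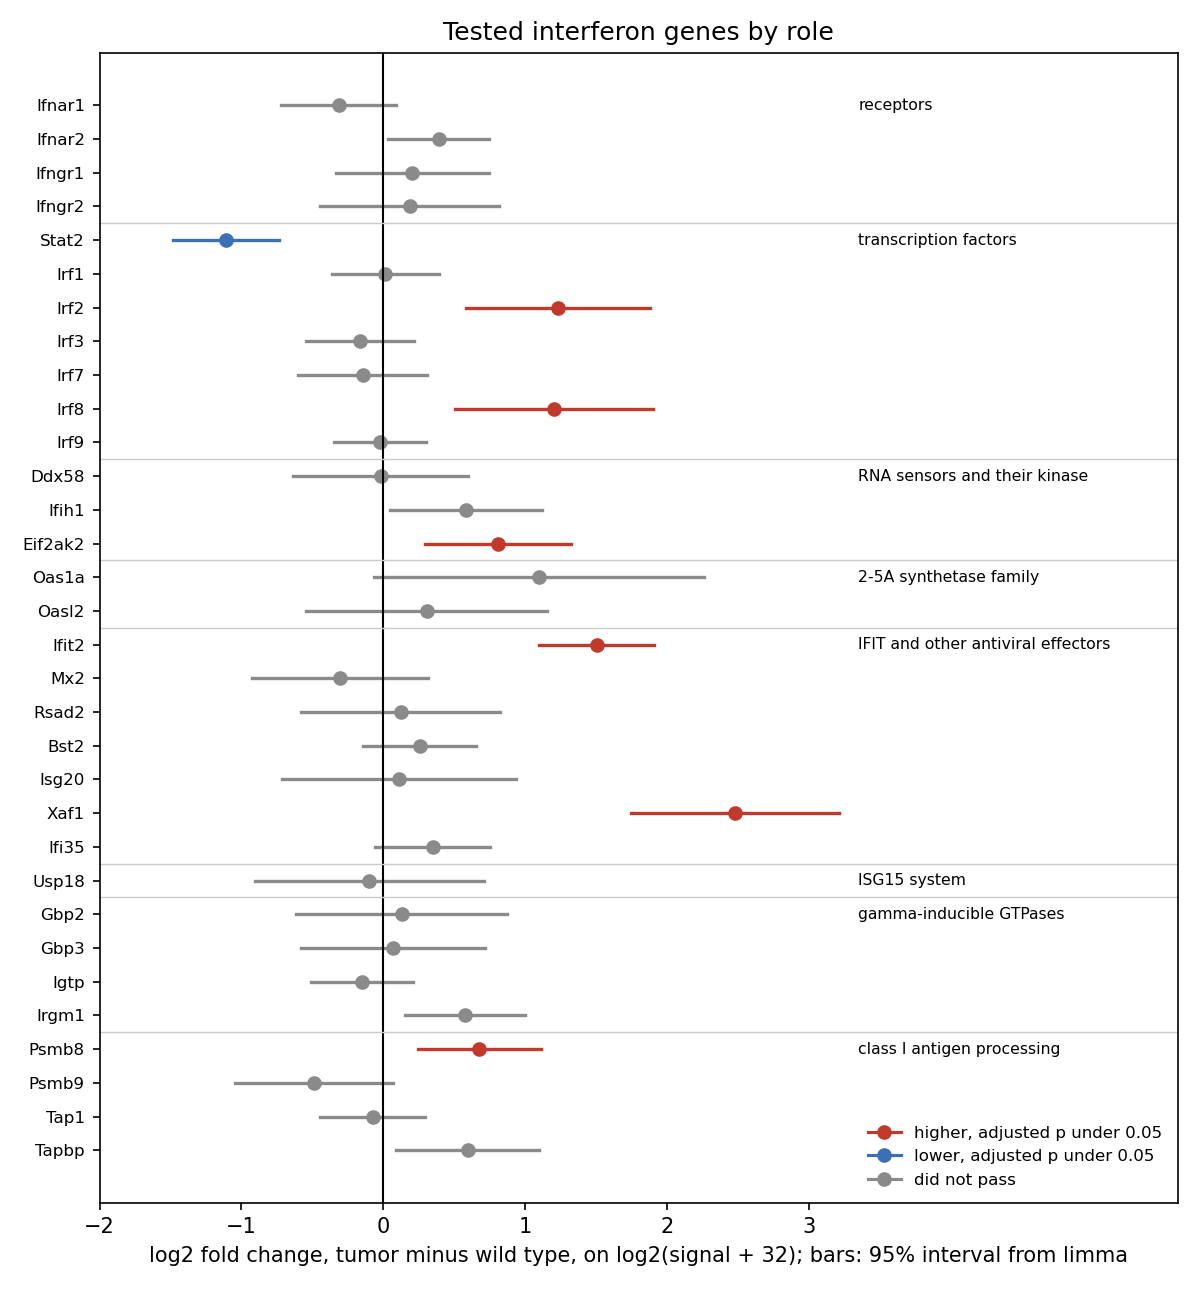
Log2 fold change (tumor minus wild type, on log2(signal + 32)) of the 32 tested genes with limma's 95% interval, grouped by role, with 3 samples per group. Most intervals include 0, with Xaf1 at 2.48 and Stat2 at -1.11 at the ends of the range. Scaled to hybridisation controls, 16 of the genes plotted above 0 fall below it.

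The groups differed in more than genotype, since tumor tissue was set against primed, isolated cells, tumors alone were held in a storage solution, and different software made the signals. None of these can be told apart from the genotype. Median signals were 100.6 to 127.8 per array, and between 22565 and 25013 probe sets reached 100. For Actb, the log2 ratio of 3' to 5' control signals, which rises as RNA degrades, averaged 0.447 ± 0.193 (SD, n = 3) in wild-type RNA against 0.808 ± 0.209 in tumor RNA. For Gapdh it was -0.391 ± 0.0653 against -0.365 ± 0.113. The part of RNA quality in the results below was not tested. Scaling each array to its bacterial hybridisation controls moved the median of all genes to -0.98. Under it 1 listed gene, Xaf1, was called higher and 19 were called lower. Nothing in the labels says whether the wild-type pools were separate collections, so the p-values measure only the spread between these samples.

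The 4 receptor genes were well above 100 on every array and none passed the test. Ifnar1, a chain of the type I receptor, read 1178, 1239 and 1199 in wild-type cells and 813, 926 and 1184 in the tumors. Its partner Ifnar2 read 1221, 1239 and 1342 against 1799, 1798 and 1438. The Ifnar1 groups met only at tumor replicate 3, while all Ifnar2 tumor values lay above the wild-type ones. The log2 fold change was -0.32 for Ifnar1 (95% interval -0.72 to 0.09, limma adjusted p = 0.211). For Ifnar2 it was 0.39 (0.03 to 0.75, limma adjusted p = 0.0984), and Ifnar2 passed without tumor replicate 3, at 0.50. The other 2 Ifnar2 probe sets, at 0.072 and 0.47, did not pass either. Ifngr1, the ligand-binding chain of the gamma receptor, read 553, 612 and 721 against 944, 763 and 527. Ifngr2, its signalling partner, read 1029, 1074 and 986 against 1492, 1451 and 749. In both gamma receptor genes tumor replicate 3 was the lowest of all 6 samples and the other tumors were the highest. Their log2 fold changes were 0.20 (-0.34 to 0.74) and 0.19 (-0.44 to 0.82), with limma adjusted p-values of 0.541 and 0.634, and Ifngr2 passed without tumor replicate 3 (0.50).

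Among the 7 transcription factor genes, Stat2 was lower in tumors, Irf2 and Irf8 were higher and 4 did not pass. Stat2 encodes the subunit that gives the type I interferon complex its activation domain. Its brightest probe set read 504, 373 and 389 in wild-type samples and 168, 181 and 184 in tumors. Its other probe set read 207, 246 and 185 against 71.6, 106 and 97.6. All tumor values lay below all wild-type values in both, and the tumors were close to each other in the brighter one, at 177 ± 8.61 (SD, n = 3) against 422 ± 71.6. The log2 fold change was -1.11 (SE 0.16, limma adjusted p = 0.00382). Tested among 21001 passing probe sets, of which 24.1% were called in either direction, the pair gave -1.11 (limma adjusted p = 0.00497) and -0.99 (0.00972).

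The other 4 factors, Irf9, Irf7, Irf1 and Irf3, did not pass, and their groups overlapped at their brightest probe sets. Irf9, the DNA-binding partner of Stat2, read 447, 491 and 413 against 426, 428 and 473. Its log2 fold change was -0.022 (95% interval -0.35 to 0.31). Irf7, which interferon induces and which amplifies the type I response, had means of 223 ± 17.9 and 202 ± 55.2 (SD, n = 3). Its log2 fold change was -0.15 (-0.60 to 0.31). Irf1, a rapid target of interferon gamma, had means of 774 ± 86.4 and 783 ± 99.3, with a log2 fold change of 0.015 (-0.36 to 0.39). The signs for Irf9 and Irf1 turned when single samples were left out. Irf3, which is activated by sensors and does not need induction, had a log2 fold change of -0.16 (-0.54 to 0.22) from its brightest probe set. A dimmer Irf3 probe set was lower in tumors, at 327, 347 and 273 against 134, 174 and 170 (log2 fold change -0.86, limma adjusted p = 0.0122 over probe sets). Another one gave -0.048 and did not pass.

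Irf2 encodes a factor that binds the same element as Irf1 and often opposes it. It read 194, 388 and 225 in wild-type samples and 687, 791 and 505 in tumors. The groups did not overlap, and wild-type replicate 2 lay closest to the tumors. The log2 fold change was 1.23 (SE 0.27, limma adjusted p = 0.0174). The call was lost under hybridisation control scaling (0.27), and without wild-type replicate 1 (limma adjusted p = 0.0661), wild-type replicate 3 (0.0597) or tumor replicate 2 (0.051). Irf2 has a single probe set, of a type (suffix _s_at) whose probes can match several transcripts.

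Irf8, a factor that directs the development of macrophages and dendritic cells, read 101, 89.7 and 79.9 in wild-type samples and 369.7, 280.4 and 144 in tumors. The tumors spread widely, and the lowest was tumor replicate 3. The log2 fold change was 1.20 (SE 0.30, limma adjusted p = 0.0241). Without any 1 sample other than tumor replicate 3 the limma adjusted p lay above the threshold, between 0.0518 and 0.0772, as it did with no filter (0.0521) and under hybridisation control scaling (0.364). The dimmer Irf8 probe set read 17.2, 14.1 and 94.7 against 211, 133 and 41.2 and was too dim to be tested. Tested markers of macrophages and of all leukocytes were also higher in tumors. Of 15 macrophage markers, 11 were tested and 11 were higher, against 14.5% of all tested genes. Their summed signal was 2554 to 2973 in wild-type samples and 14398 to 17657 in tumors. Markers of all leukocytes summed to 513 to 614 in wild-type cells and to 2068 to 3822 in tumors. Dendritic cell markers overlapped between groups, with sums of 260 to 391 in wild-type samples and 171 to 336 in tumors. Of those 5 markers 4 were too dim to test, so the sum cannot show whether these cells differed. The part of immune cells in the Irf8 result was not tested. More cells of a type cannot be told apart from more RNA per cell in tissue RNA.

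**Figure D3:**
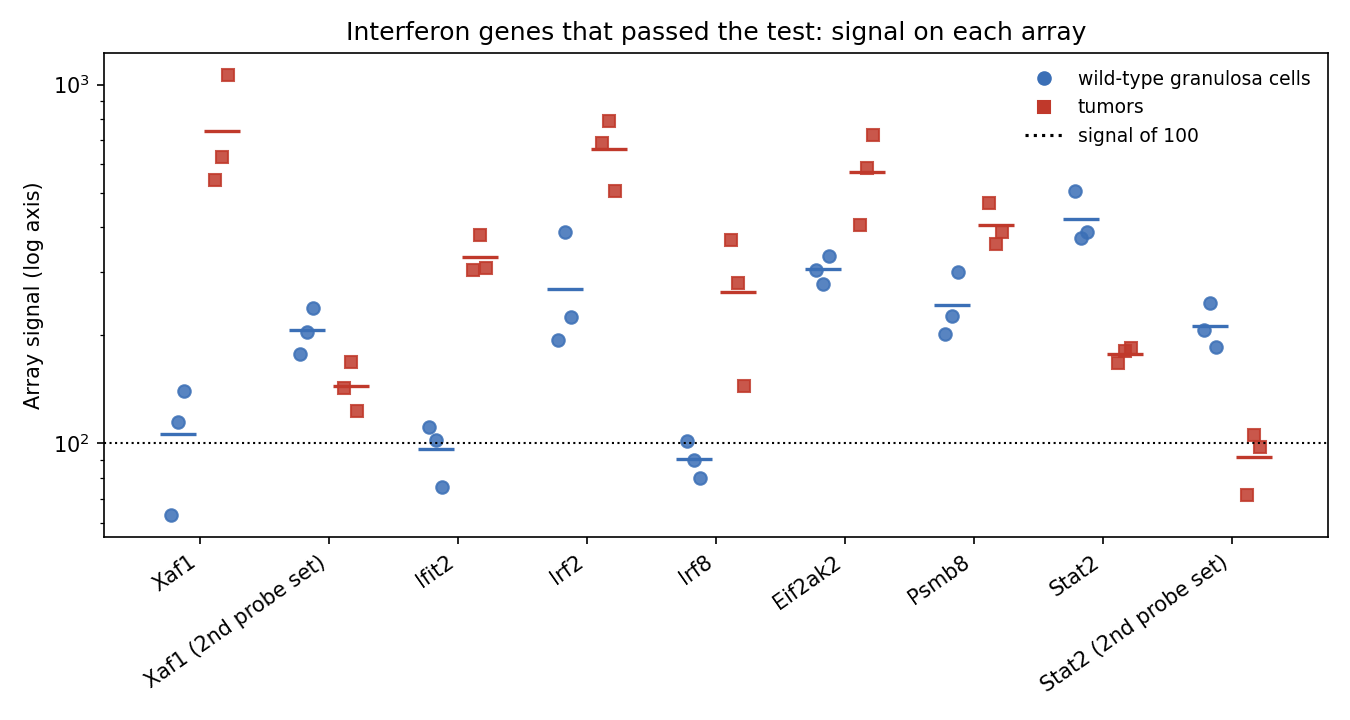
Signal on each array (log axis) for the 7 genes that passed the test, with the other probe sets of Xaf1 and Stat2. Circles are the 3 wild-type samples, squares the 3 tumors, short lines the group means and the dotted line a signal of 100. The Xaf1 probe sets ran in opposite directions and those of Stat2 in the same. Eif2ak2 and Psmb8 fall below 0 when scaled to hybridisation controls.

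Of the genes that sense or react to viral RNA inside the cell, Eif2ak2 was higher. It encodes PKR, a kinase that stops translation when it binds double-stranded RNA. It read 305, 278 and 333 in wild-type samples and 405, 585 and 726 in tumors, without overlap. The log2 fold change was 0.81 (SE 0.22, limma adjusted p = 0.0331). This probe set was the brightest over the 6 arrays only through its tumor signal, with a mean of 572 in tumors. In wild-type samples another Eif2ak2 probe set was brighter, with a mean of 381 against 305. The other 2 probe sets of Eif2ak2 read 0.27 and -0.19 and did not pass, the mean over all 3 was 0.30 (limma adjusted p = 0.282), and under hybridisation control scaling the value was -0.17, which lay 0.82 above the median of all genes. The call also ended without any 1 sample other than tumor replicate 1, with limma adjusted p-values from 0.0615 to 0.1, and with no filter (0.0712). Ddx58 (RIG-I), a sensor of short viral RNA, had means of 404 ± 129 and 387 ± 64.6 (log2 fold change -0.019, 95% interval -0.63 to 0.60). Its sign turned with median scaling or without single samples. Ifih1 (MDA5), a sensor of long double-stranded RNA, read 258, 361 and 285 against 599, 343 and 479. The groups overlapped through tumor replicate 2, and the log2 fold change of 0.58 (0.05 to 1.12, limma adjusted p = 0.0999) passed without it (0.78). Dhx58, a regulator of both, was below 100 on every array.

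The 2-5A synthetases make a messenger that activates an RNA-degrading enzyme, and 2 of 4 were too dim to test. Oas1a read 69.5, 19.1 and 200.5 in wild-type samples and 170.1, 189.9 and 232 in tumors. Wild-type replicate 3 lay among the tumors, and the log2 fold change of 1.10 (95% interval -0.07 to 2.26, limma adjusted p = 0.143) passed without that sample (1.66). Oasl2 read 141, 180.5 and 220.5 against 180.5, 433 and 146, with tumor replicate 2 alone above the wild-type range. Its log2 fold change was 0.31 (-0.54 to 1.16), and it was -0.11 without that tumor. Oas2 reached 100 on 1 array of each group, at 105 and 104. Oas3 reached it on none.

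The antiviral effectors held the largest difference among the listed genes, and also 3 of the 6 that were too dim to test. Xaf1, which encodes a partner of an inhibitor of apoptosis and is induced by interferon, read 62.9, 114.5 and 140.1 in wild-type samples and 541, 629 and 1064 in tumors. The lowest tumor was well above the highest wild-type sample. The log2 fold change was 2.48 (SE 0.31, limma adjusted p = 0.00239), with means of 106 ± 39.3 and 744 ± 280.0 (SD, n = 3). The other Xaf1 probe set read 178, 205 and 238 against 143, 168 and 123. There every tumor lay below every wild-type sample, by a log2 fold change of -0.43 (SE 0.17), which did not pass (limma adjusted p = 0.113 over probe sets). In wild-type samples this other probe set was the brighter of the pair, with a mean of 207 against 106. The first stood for Xaf1 only through its tumor signal, so its call is not independent of that choice. Which parts of the Xaf1 transcripts the pair of probe sets covers was not analysed here. Averaged over both, Xaf1 still passed, at 1.02 (limma adjusted p = 0.0105).

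The Ifit genes, whose proteins bind viral RNA that lacks the marks of the host's own, differed in level and in outcome. Ifit2 read 111, 102 and 75.7 in wild-type samples and 305, 381 and 308 in tumors. Its tumors lay close together and far from the wild-type samples, and the log2 fold change was 1.51 (SE 0.17, limma adjusted p = 0.00169). Under hybridisation control scaling it was 0.63 and did not pass (limma adjusted p = 0.105). Ifit3 read 98.9, 94.3 and 91.5 against 241, 69.7 and 226. Tumor replicates 1 and 3 lay above all wild-type samples and tumor replicate 2 below them, and Ifit3 was not tested. Ifit1 read 66.8, 43.6 and 16.4 against 44.1, 114 and 57.5, with only tumor replicate 2 above 100. Among the windows shown above, those of Ifit1 and Ifit3 each hold 2 ISRE cores, while in the 2 Ifit2 promoters the only match among the 3 patterns was GAS.

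The remaining effectors overlapped between groups or did not pass. Bst2 (tetherin), which holds budding virus at the cell surface, was bright in both: 5146, 5092 and 4021 against 4934, 5879 and 6217. Its log2 fold change was 0.26 (95% interval -0.14 to 0.66). Rsad2 (viperin) read 234, 261 and 169 against 147, 266 and 348 at its brightest probe set, a log2 fold change of 0.12 (-0.58 to 0.82) that turned negative without wild-type replicate 3 or tumor replicate 3. A dimmer Rsad2 probe set was higher in tumors, at 109, 112 and 104 against 157, 175 and 175 (log2 fold change 0.52, limma adjusted p = 0.0366 over probe sets). The dimmest Rsad2 probe set read 43.1, 49 and 67.5 against 97.1, 95.6 and 208. Its groups did not overlap either, but it was too dim to test. Isg20, an exonuclease gene, had a log2 fold change of 0.11 (-0.71 to 0.94). Ifi35 read 1384, 1488 and 1562 against 1780, 1625 and 2326. Its groups did not overlap, but the value of 0.35 did not pass (limma adjusted p = 0.178), and its other 2 probe sets lay lower in every tumor, at -0.18 and -0.49, without passing. The Mx genes, dynamin-like antiviral GTPases, were dim: Mx1 reached 100 on 1 array and Mx2 on 3, with a log2 fold change of -0.31 (-0.93 to 0.32). Usp18, which removes the Isg15 tag and restrains the type I receptor, had means of 99.3 ± 14.3 and 99.7 ± 54.8.

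The 4 listed GTPases that interferon gamma induces against intracellular microbes did not pass. Irgm1 came closest. It read 503, 336 and 358 in wild-type samples and 637, 576 and 595 in tumors, without overlap, and the log2 fold change was 0.58 (95% interval 0.15 to 1.00, limma adjusted p = 0.0518). It passed under 6 of 17 alternatives and turned negative under hybridisation control scaling (-0.41, which was 0.58 above the median of all genes). Igtp read 557, 472 and 592 against 531, 478 and 439.6, and its log2 fold change was -0.15 (-0.51 to 0.21). Gbp2 ranged from 337 to 794 in wild-type samples and from 437 to 685 in tumors (0.13, -0.61 to 0.88). Gbp3 had means of 199 ± 81.6 and 203 ± 42.8 (0.069, -0.58 to 0.72).

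The 4 genes of class I antigen processing split. Psmb8, a catalytic subunit that interferon swaps into the proteasome, read 201, 227 and 299.9 in wild-type samples and 467, 360.0 and 388 in tumors. The groups did not overlap, and the log2 fold change was 0.68 (SE 0.19, limma adjusted p = 0.0339). The call was lost without any 1 sample other than wild-type replicate 3 (limma adjusted p from 0.0546 to 0.127), with no filter (0.0755) and with the replicate numbers as a block (0.068), and the value was -0.26 under hybridisation control scaling, 0.72 above the median of all genes. Psmb9, its partner subunit, read 400.1, 446 and 399.8 against 424, 252 and 217. Here tumor replicates 2 and 3 lay below all wild-type samples. The log2 fold change of -0.49 (95% interval -1.05 to 0.07) did not pass, but did so without tumor replicate 1 (-0.75). Psmb9 also passed under hybridisation control scaling (-1.43), where it was -0.44 relative to the median of all genes. Tap1, a subunit of the peptide pump into the endoplasmic reticulum, had means of 316 ± 48.8 and 297 ± 12.4. Tapbp (tapasin), which loads peptide onto class I molecules, read 1920, 2422 and 1953 against 4013, 3256 and 2431. Tumor replicate 3 lay just above the wild-type range and the other tumors well above it, and 0.59 (0.09 to 1.10) did not pass (limma adjusted p = 0.08). It passed without tumor replicate 3 (0.78) and with limma's trend option. The other Tapbp probe set read 667, 786 and 652 against 997, 755 and 478. Its groups overlapped, and its log2 fold change of 0.026 did not pass.

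For the 25 genes that did not pass, the 95% interval lay within a 2-fold difference in either direction in 19. In 5 it reached a 2-fold rise and in 1, Psmb9, a 2-fold fall. The intervals of the 32 genes reached a median of 0.53 to each side on the log2 scale. The median SD of log2 values over the 32 genes was 0.29 among tumors and 0.20 among wild-type samples (0.24 and 0.19 over all tested genes), and 18 of the 32 had the larger SD among tumors. Of the 32 tested genes, tumor replicate 1 was the brightest tumor for 16, tumor replicate 3 for 11 and tumor replicate 2 for 5. As log2 deviations from the wild-type mean, the median over the 32 genes was 0.31, 0.27 and 0.18 in tumor replicates 1 to 3, and between -0.035 and 0.027 in wild-type cells.

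A list of 155 other genes of the pathway put these values in context. 129 had a probe set of their own and 98 were tested, of which 22 were higher, 4 were lower and 72 did not pass. The 26 called were 26.5% of the 98, against 27.2% of all genes. 4 of the 98 entered the test through 1 group alone, and 3 of them, Batf3, Sp100 and Slfn2, are among the 22. The counts fell to 14 higher and 1 lower without wild-type replicate 1. There were 2 lower without wild-type replicate 2, wild-type replicate 3 or tumor replicate 1, with median scaling and with the replicate block, and 1 without tumor replicate 2 or with no filter. The median log2 fold change of the 98 was 0.24. No interferon gene itself could be tested: 7 were on the array, 6 of them below 100 everywhere, and Ifna1 reached 100 on 1 wild-type array (111). Ifng read 2.58 to 9.25 in tumors, and Ifnb1 18.4 to 42.8. Markers of T and NK cells, a main source of interferon gamma, were also dim, with 1 of 9 tested (Cd8a, which did not pass) and a summed signal of 317 to 432 in wild-type samples and 381 to 681 in tumors.

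**Figure D4:**
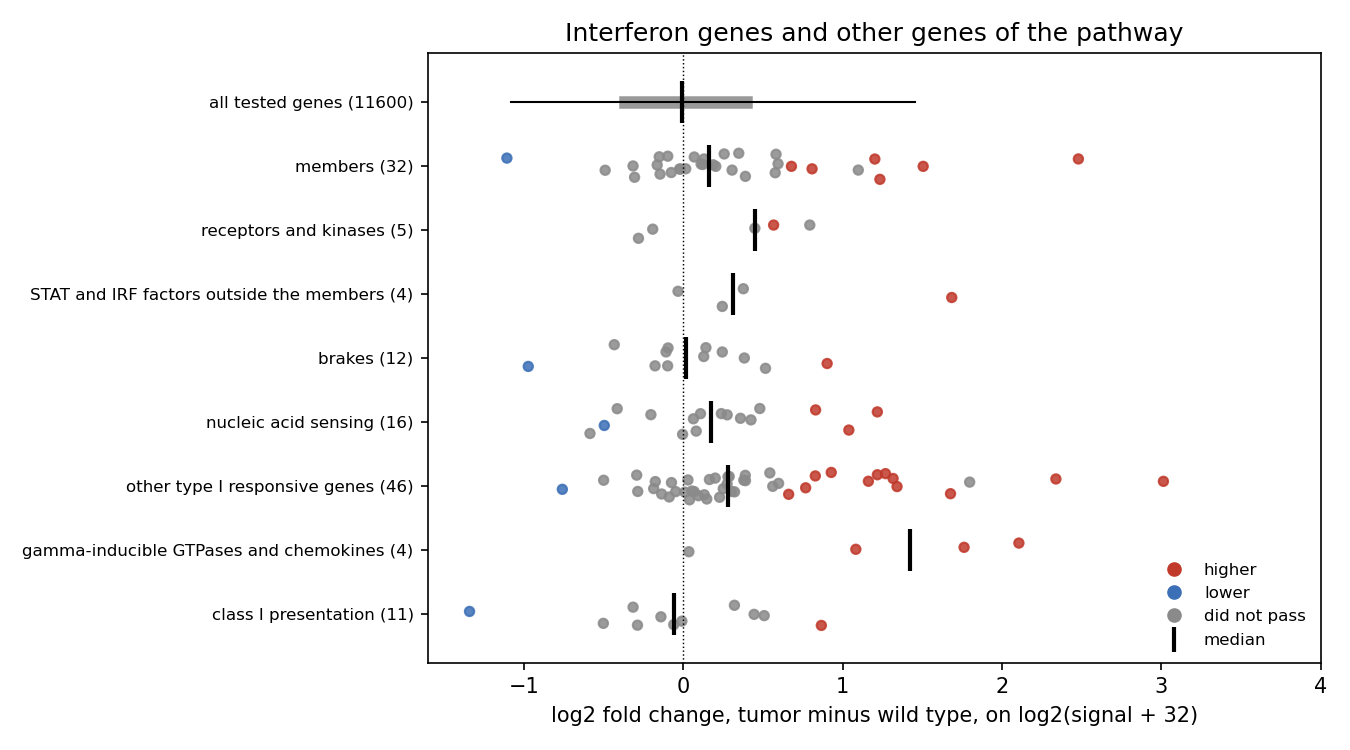
Log2 fold changes (tumor minus wild type, on log2(signal + 32)) of the 32 tested listed genes and of 98 other pathway genes by group, each point a gene, with the median as a black line. For all 11600 tested genes the thick bar spans the middle 50% and the thin line the middle 90%. The median was 0.16 for the listed genes and 0.28 for the other type I responsive genes. Scaled to hybridisation controls, the median of the listed genes was -0.80 and that of all genes -0.98.

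Of 46 tested genes that also respond to type I interferon, 12 were higher, 1 was lower and 33 did not pass, so 28.3% were called against 27.2% of all genes. Their median log2 fold change was 0.28. Mndal, a DNA-binding gene of the Ifi200 family, read 51.5, 133.7 and 127.5 in wild-type samples and 1193, 1216 and 726 in tumors. Its log2 fold change was 3.01 (SE 0.32, limma adjusted p = 0.00138), from the brightest of 2 probe sets. The other Mndal probe set is not reported here. Ifitm1, of a family that blocks virus entry, read 266, 494 and 378 against 1517, 1227 and 4224 (2.34, SE 0.46). Uba7, the enzyme that activates Isg15 for conjugation, was lower at 465, 565 and 366 against 329, 220.4 and 236 (-0.76, SE 0.21, limma adjusted p = 0.0384). Of the gamma-inducible GTPases and chemokines, 4 of 12 on the array were tested and 3 were higher. That is 75% called, of only 4 genes, against 27.2% of all genes. Ifi47 read 121, 129 and 116 against 471, 439 and 569.9 (1.76, SE 0.15, limma adjusted p = 0.000653), and Irgm2, another such GTPase, also passed (1.08, SE 0.15, limma adjusted p = 0.00357). Nos2, the inducible nitric oxide synthase, read 77.8, 113 and 31.5 against 886, 365 and 189 (2.11, SE 0.53, limma adjusted p = 0.0261). The chemokine genes Cxcl9 and Cxcl10, chosen after their values were seen, were untested: Cxcl9 read 4.5 to 6.8 in wild-type samples and 228, 101 and 3.89 in tumors, and Cxcl10 7.1 to 26.9 and 160.1, 90.7 and 14.6. For both, tumor replicate 3 lay with the wild-type samples.

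Of 16 tested sensing genes 3 were higher and 1 lower, a share called of 25% against 27.2% of all genes. Cgas, the sensor of cytosolic DNA, read 31.7, 62.8 and 105 against 154, 189 and 221 (log2 fold change 1.22, SE 0.29, limma adjusted p = 0.0204). Its adaptor Sting1 read 108, 108 and 85 against 212, 359 and 177 (1.04, SE 0.25). Adar, which edits double-stranded RNA and so hides it from the sensors, was lower at 1231, 1310 and 1238 against 902, 873 and 878 (-0.50, SE 0.13). Of 12 negative regulators, Socs1, a feedback inhibitor of the receptor kinases, was lower, at 193, 120 and 194 against 40.8, 70.4 and 105 (-0.97, SE 0.27, limma adjusted p = 0.0375). The phosphatase gene Ptpn11 was higher, with a log2 fold change of 0.90 (SE 0.15), and 10 did not pass. The share called was 16.7%, against 27.2% of all genes.

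Of the 5 other receptor and kinase genes, 1 passed: Il10rb, which serves the interferon lambda receptor, with a rise of 0.57 in log2 signal (SE 0.17, limma adjusted p = 0.0428). Jak1, Jak2 and Tyk2, the kinases bound to the receptors, did not pass (-0.19, 0.45 and -0.28). Of 4 other STAT and IRF-related factors, Batf3, a factor of dendritic cells, was higher, at 17.8, 16.5 and 20.4 against 109, 167 and 117. It entered the test through its tumor signals alone, and was at least 1.29-fold higher with the wild-type samples set to 100. In class I presentation, B2m, the light chain, rose from 7436, 8820 and 8579 to 15196, 14114 and 15981 (0.87, SE 0.14), and H2-M3, a heavy chain for microbial peptides, fell by 1.34 on the log2 scale (SE 0.22). The other 9 of 11 tested genes did not pass. The shares called were 20% of the receptor and kinase genes, 25% of the STAT and IRF-related factors and 18.2% in class I presentation. Of all tested genes, 27.2% were called.

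Marker lists put the listed genes beside the cells of the tissue. Granulosa markers were bright in both groups, with a summed signal over 7 genes of 102539 to 114829 in wild-type samples and 64805 to 81400 in tumors. Fshr and Fst were lower in tumors, Amh was higher and 4 did not pass. The 5 leukocyte markers were all higher, though Ptprc, and Jchain in the B cell list, were tested only through their tumor signals. Endothelial markers did not overlap between groups in any of 6 genes, of which 3 were called higher. Of all tested genes, 46.3% did not overlap and 14.5% were called higher. The endothelial sum was 808 to 1119 in wild-type cells and 2462 to 4658 in tumors. Of 5 dendritic cell markers 1 was tested and did not pass. B and plasma cell markers summed to 275 to 321 in wild-type samples and to 4713, 251 and 870 in tumors, through Jchain. For comparison, the median deviation from wild type was 2.08 to 2.53 in the tumors for the macrophage markers and 0.18 to 0.31 for the listed interferon genes.

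**Figure D5:**
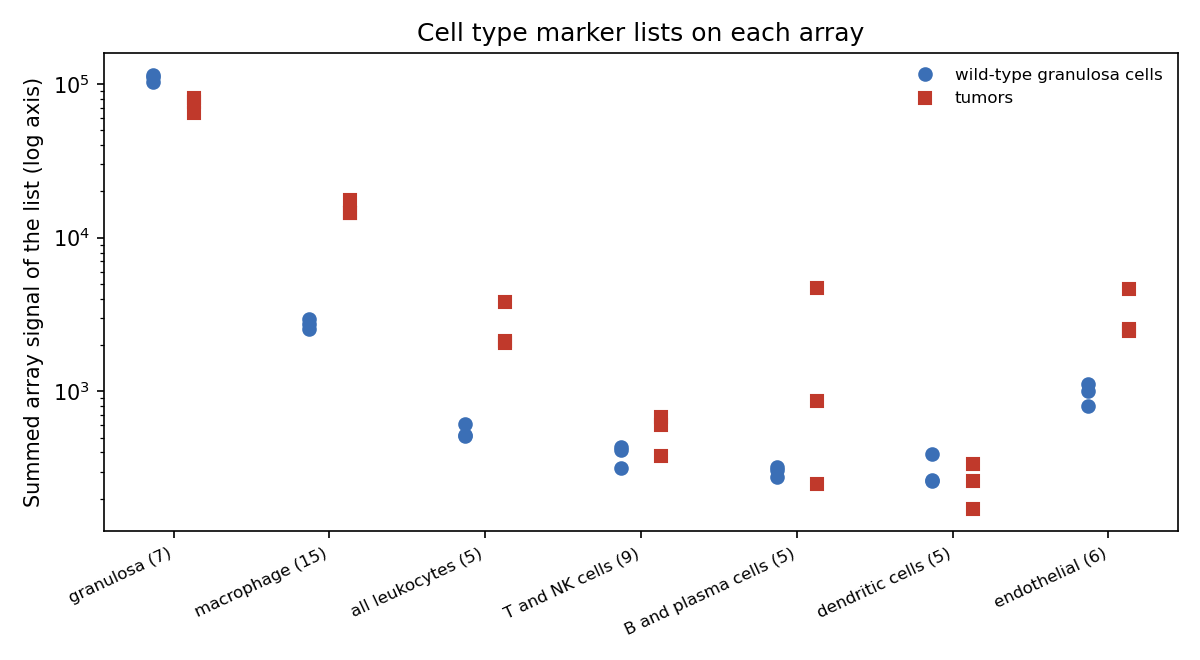
Summed signal of each marker list on each array (log axis), with the number of genes in brackets. Circles are wild-type samples and squares tumors. The macrophage sum was 2554 to 2973 in wild-type samples and 14398 to 17657 in tumors, while the dendritic cell list overlapped between groups. In that list 4 of 5 genes were too dim to test.

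The promoter patterns stood in genes of every outcome. Of the 6 genes called higher, 2 (Irf2 and Eif2ak2) hold an ISRE core in the window, as do 9 of 23 genes with a promoter that did not pass and Stat2, which was lower. Of the 3 genes with a promoter that were too dim to test, Ifit1, Ifit3 and Oas3, all 3 hold one. GAS stood in 5 of the 6 called higher and in 8 of the 23 that did not pass. These are counts of letters in a short window and were not tested.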

How the data were processed

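RNA of 6 mouse samples was read on 1 Affymetrix array each. The deposited values are linear intensities, 1 signal per probe set and array, made with MAS5 (wild type) and GCOS (tumors) per the submitters' processing notes; the sources used here give no versions or settings. Their trimmed mean was 500 on every array, leaving out 2% at each end, and each array was scaled to it again. GEO's platform annotation gave 1 symbol to 34945 of 45101 probe sets, several to 932 and none to 9160 (64 more were controls); symbols checked through Entrez against RefSeq changed in 0 cases. Several symbols or none meant no name.

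The brightest probe set by mean signal stood for each of 18193 genes and was tested if at least 3 arrays reached 100. Among the called listed genes, the tumor signal decided that choice for Xaf1 and Eif2ak2. Groups were compared on log2(signal + 32) with limma 3.58.1 under R 4.3.3, by a moderated 2-sided test (lmFit, eBayes) and Benjamini-Hochberg adjustment over 11600 genes, or over 21001 probe sets where stated. Folds on this scale understate the change of dim genes. The number of arrays limits the precision. The fit was tested on simulated data. Promoters came from RefSeq, and tables and figures from Python 3.11.15, pandas 2.3.3 and matplotlib 3.10.9.

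The genes and lists were chosen with earlier results of these data known. Per-array values are given for called or non-overlapping listed genes, the receptors, Xaf1 and Stat2; in each pathway list the rule names the 2 called genes with the largest change and the called gene with the largest change the other way. Other genes were named after their values were seen. 17 alternatives were run: pseudocounts 1 and 100, no filter or a minimum of 200, 3 scalings, limma's trend and robust options, averaged probe sets, leaving out each sample, and a replicate block.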

Additional observations from a re-analysis of the deposited data

How the results depend on the processing

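The calls of Xaf1 and Stat2 held under all 17 alternatives (log2 fold change 1.02 to 2.82 and -2.03 to -0.90), and that of Ifit2 under all but hybridisation control scaling (0.63, limma adjusted p = 0.105). The probe set that stood for Xaf1 had been chosen through its tumor signal. Without 1 sample at a time, 3 to 7 listed genes were higher and 1 to 2 lower, 870 to 1703 and 663 to 1406 of all genes, and 14 to 22 and 1 to 4 of the other pathway genes, while the median of the listed genes was 0.085 to 0.26. 3 were called higher without wild-type replicate 1, wild-type replicate 2 or tumor replicate 2. With no filter, 3 listed genes were higher and 1 other pathway gene lower. With median scaling, 918 of all genes and 2 other pathway genes were lower, and the listed median was 0.25.

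Hybridisation control scaling put the median of all genes at -0.98 and that of the listed genes at -0.80. It gave 1 listed gene higher and 19 lower, 416 and 7540 of all genes, and 5 and 46 of the other pathway genes. The Xaf1 probe set that did not stand for the gene was called lower (-1.30). 16 listed genes turned negative: Ifnar2 (-0.64), Ifngr1 (-0.79), Ifngr2 (-0.83), Irf1 (-0.99), Ifih1 (-0.38), Eif2ak2 (-0.17), Oasl2 (-0.58), Rsad2 (-0.81), Bst2 (-0.79), Isg20 (-0.80), Ifi35 (-0.68), Gbp2 (-0.85), Gbp3 (-0.81), Irgm1 (-0.41), Psmb8 (-0.26) and Tapbp (-0.44).

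The other 21 turns of sign were in genes that had not passed. They were Irf9 (0.071), Ddx58 (0.077) and Tap1 (0.016) with median scaling, Ifi35 (-0.11) with averaged probe sets, and 17 when 1 sample at a time was left out. Over those 6 fits the values ran from -0.083 to 0.10 for Irf1, -0.078 to 0.038 for Irf9, -0.29 to 0.13 for Ddx58, -0.11 to 0.58 for Oasl2, -0.12 to 0.43 for Rsad2, -0.15 to 0.47 for Isg20, -0.33 to 0.32 for Usp18, -0.17 to 0.41 for Gbp2 and -0.17 to 0.33 for Gbp3. The cause of these changes was not tested.

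Samples of both groups carry numbers 1 to 3, and the labels do not say whether samples of the same number share anything else. Their deviations correlated at -0.0442, 0.028 and 0.0908, and they were not treated as pairs. With that number as a replicate block, 5 listed genes were higher (Psmb8 did not pass) and 1 lower, and 2 other pathway genes were lower.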
